A study of Mus musculus with 6 samples.

Results

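Scavenger receptors are surface proteins with which macrophages bind and take up modified lipoproteins, bacterial surfaces, free haemoglobin and cell debris. The genes described here are *Msr1*, *Marco*, *Cd36*, *Scarb1*, *Cd163*, *Stab1* and *Colec12*, 7 genes found by symbol in the gene table of the study. All 7 had a total count of at least 10 and were among the 15903 genes tested, out of 57010 genes in the table of raw counts. RNA was sequenced from bone-marrow-derived macrophages (BMDMs), which are macrophages grown out of marrow in the presence of M-CSF. The marrow came from 3 mice of the C57BL/6J strain carrying the *Cx3cr1* GFP allele, a GFP sequence placed in the *Cx3cr1* locus, and this allele was shared by control and treated cells. From each animal, 1 culture stayed without stimulus (control, n = 3) and 1 received 62 mM excess NaCl over 24 h (NaCl, n = 3), and only adherent cells were harvested. The labels give no age or sex, and whether the allele was on 1 or both chromosomes is not given in the sources used here.

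The proteins belong to several structural classes that do not share a common ancestor and are grouped by what they bind. SR-A (*Msr1*) and MARCO are trimeric receptors with a collagen-like stalk that bind polyanionic ligands such as acetylated or oxidised LDL and bacterial walls. COLEC12, a collectin with a collagen-like domain, binds sugars and oxidised LDL. CD36 and SR-BI (*Scarb1*) are class B receptors with paired membrane anchors, the first taking up oxidised LDL and long-chain fatty acids and the second exchanging cholesterol with HDL. CD163 clears haemoglobin bound to haptoglobin, and stabilin-1 (*Stab1*) clears acetylated LDL, SPARC and other extracellular products. The question of the comparison is whether the transcripts of these receptors differed between salt-treated and control BMDMs of the same animals.

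Promoter sequences were available from RefSeq (build GRCm38.p6) for 4 of the 7 genes. All available sequences are shown, and *Msr1*, which was also lower in NaCl in all mice, had none. Of the 4 genes, 3 were lower in NaCl in all mice and the other, *Cd163*, was not. Each runs from 250 bases before to 50 bases after a transcription start, 5′ to 3′ on the strand of the gene. Capitals mark matches, on either strand, to 4 short motifs: TGGAAA (the core of the site of the osmotic regulator NFAT5), GAGGAAG (PU.1), TGACNNNGC (NRF2) and AGGTCA (bound by nuclear receptors). No match overlapped another.
*Cd36*, chr5:17835847-17836146, minus strand: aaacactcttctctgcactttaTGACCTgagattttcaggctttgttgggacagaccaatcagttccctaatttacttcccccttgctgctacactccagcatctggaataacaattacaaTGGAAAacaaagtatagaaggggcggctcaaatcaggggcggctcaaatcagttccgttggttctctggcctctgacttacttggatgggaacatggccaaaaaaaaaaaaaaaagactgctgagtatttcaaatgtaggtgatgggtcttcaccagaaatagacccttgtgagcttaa
*Stab1*, chr14:31168592-31168891, minus strand: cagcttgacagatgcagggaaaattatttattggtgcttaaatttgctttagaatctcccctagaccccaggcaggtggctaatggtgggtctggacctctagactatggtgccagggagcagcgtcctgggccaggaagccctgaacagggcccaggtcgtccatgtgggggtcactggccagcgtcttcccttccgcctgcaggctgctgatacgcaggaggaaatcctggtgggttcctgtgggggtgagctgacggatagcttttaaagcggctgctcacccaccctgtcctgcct
*Marco*, chr1:120504975-120505274, minus strand: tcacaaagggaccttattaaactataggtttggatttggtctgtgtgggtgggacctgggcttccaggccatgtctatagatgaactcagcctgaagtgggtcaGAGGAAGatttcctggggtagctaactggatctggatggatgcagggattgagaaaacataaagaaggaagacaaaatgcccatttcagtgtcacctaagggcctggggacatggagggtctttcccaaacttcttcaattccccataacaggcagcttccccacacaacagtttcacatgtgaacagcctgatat
*Cd163*, chr6:124304401-124304700, plus strand: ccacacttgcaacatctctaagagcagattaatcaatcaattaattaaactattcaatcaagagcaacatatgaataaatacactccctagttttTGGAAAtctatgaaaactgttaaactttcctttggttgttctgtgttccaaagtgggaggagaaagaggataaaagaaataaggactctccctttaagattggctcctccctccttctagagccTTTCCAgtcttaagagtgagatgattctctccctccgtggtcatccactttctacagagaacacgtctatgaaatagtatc
In *Cd36*, TGGAAA lay at position -129 from the start and AGGTCA, on the opposite strand, at -228. *Cd163* held TGGAAA at -155 and, on the opposite strand, at -31, and *Marco* held GAGGAAG at -146. *Stab1* held none of the 4 motifs in this window, and none of the 4 promoters held TGACNNNGC. TGGAAA occurred in 21.4% of the 32851 promoters of the same table, AGGTCA in 16.3%, GAGGAAG in 13.6% and TGACNNNGC in 12.4%, so each is common. One of the promoters with TGGAAA belonged to a gene lower in NaCl in all mice, *Cd36*, and the other to *Cd163*.

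Expression is given as CPM, counts scaled by edgeR to a common library size with TMM factors, with the raw read counts where they are low. The reads counted on genes ranged from 8520433 to 20123570 in the control libraries and from 4088065 to 11610020 in the NaCl libraries, and the smallest library was that of NaCl-treated cells of mouse 3. The reads of the 7 genes together made up 0.747% to 0.833% of each control library and 0.401% to 0.559% of each NaCl library, so the ranges did not overlap. The libraries kept no strand information. In GENCODE M21 exons of 6 of the 7 genes overlap no other gene, and those of *Stab1* overlap *Nt5dc2* over 1.09% of their length. Of all 75-base windows of their transcripts, 0.34% in *Stab1* and 0.826% in *Colec12* occur in another gene, and 0% in the other 5. In bulk RNA, fewer cells of a type and less RNA per cell cannot be told apart.

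The 7 genes spanned a wide range of levels, compared here per kb of exon. *Cd36* was at 1511 ± 117 CPM per kb in control BMDMs (mean ± SD, n = 3), *Stab1* at 152 ± 17.6 and *Msr1* at 113 ± 29.0. *Scarb1* followed with 13.4 ± 1.74, *Colec12* with 10.4 ± 2.07, *Cd163* with 5.20 ± 1.80 and *Marco* with 2.29 ± 0.724 CPM per kb. The control libraries of *Stab1* and *Msr1* overlapped, as did those of *Scarb1* and *Colec12*, while the other neighbours did not overlap in control. Within each control library, however, *Stab1* lay above *Msr1* and *Scarb1* above *Colec12*. In NaCl the same order of the means held, with *Scarb1* at 14.2 ± 2.44 and *Colec12* at 12.3 ± 2.43 CPM per kb again overlapping. *Stab1* lay above *Msr1* in each NaCl library too. In the NaCl library of mouse 3, *Colec12* lay above *Scarb1*, at 14.6 against 13.9 CPM per kb. *Cd36* alone gave 82.3% to 84.6% of the summed level per kb of the 7 genes in the control libraries. In NaCl it gave 83.2% and 84.3% in mice 1 and 3 and 72.7% in mouse 2. The sum itself was 1807 ± 149 CPM per kb in control and 1081 ± 215 in NaCl.

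**Figure D1:**
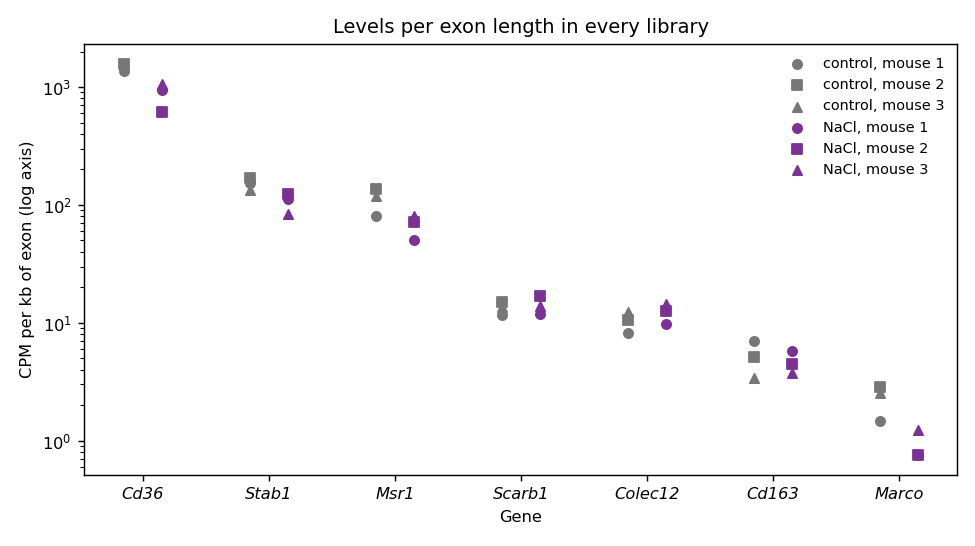
Level of each of the 7 genes in CPM per kb of exon (vertical log axis), with 1 point for every library, grey for control and purple for NaCl, and the shape of the point giving the mouse. *Cd36* lies highest, at 1511 in control, *Stab1* and *Msr1* follow at 152 and 113, and *Marco* is lowest, with control and NaCl points apart for *Cd36*, *Stab1* and *Marco*.

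Of the 7 transcripts, 4 were lower after salt in each animal. *Scarb1* and *Colec12* were slightly higher in each animal, and *Cd163* had no common direction. Salt-treated cells of 3 of 3 mice held less *Cd36*, *Msr1*, *Marco* and *Stab1* than their controls, and the group mean was lower by 42.1%, 39.6%, 59.9% and 30.1%. For *Cd36*, *Marco* and *Stab1* all 3 NaCl libraries lay below all 3 control libraries, a pattern that 10.1% of all genes tested showed, and 23.4% of all genes were lower in 3 of 3 mice. In edgeR's quasi-likelihood test of NaCl against control, none (0) of the 7 genes passed an adjusted p-value of 0.05, beside 0.176% of all genes tested that passed as lower and 0.478% as higher. At an unadjusted p-value under 0.05, 4 of the 7 were lower and 0 higher, beside 6.01% of all genes lower. The labels give the mouse of every library. Once edgeR took the mouse as replicate block, 4 of the 7 were past the threshold as lower and 0 as higher. This fit called 4.3% of all genes lower and 4.6% higher. In edgeR the spread of a gene is estimated in part from all genes. A small adjusted p-value with the block is therefore not a measure of the spread between 3 mice alone. DESeq2 without the block called 2 of the 7 lower, beside 0.987% of all genes, and edgeR without the block but with a minimum total count of 1 called 4, beside 1.21% of all genes then tested. The median log2 fold change of the 7 was -0.52, against -0.01 over all genes tested, whose quartiles were -0.24 and 0.24.

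**Figure D2:**
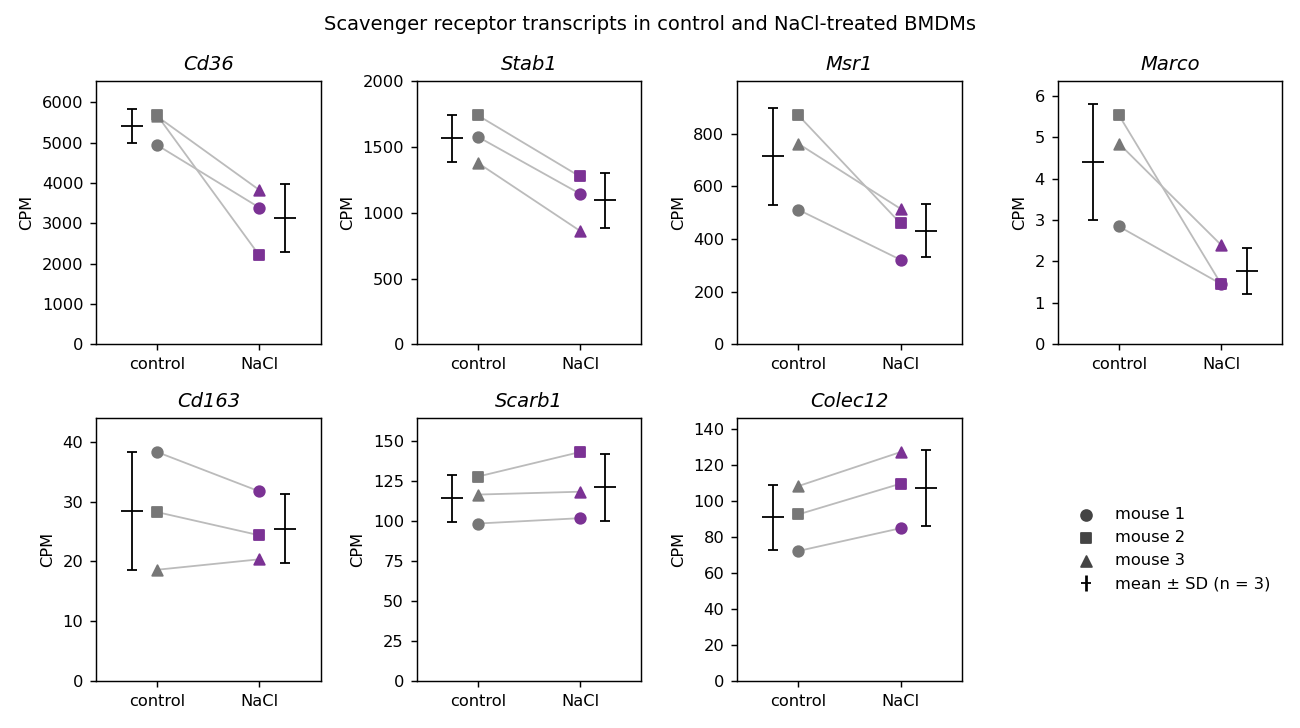
CPM of each gene in control (grey) and NaCl (purple), with a line joining the libraries of 1 mouse and a bar for the mean ± SD of 3 libraries, and each panel starting at 0. All 3 lines fall for *Cd36*, *Stab1*, *Msr1* and *Marco* and rise slightly for *Scarb1* and *Colec12*, while the lines of *Cd163* do not share a direction. The *Marco* points of mice 1 and 2 in NaCl coincide.

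*Cd36* (ENSMUSG00000002944.16, chromosome 5), the receptor for oxidised LDL and fatty acids, was at 4940, 5679 and 5652 CPM in control mice 1, 2 and 3. In NaCl it was at 3390, 2203 and 3826 CPM. The NaCl library of mouse 2 was the lowest, and no NaCl value reached a control value. On the log2 scale NaCl differed from control by -0.79 (standard error 0.20, adjusted p = 0.134 in edgeR), and with the replicate block it was -0.82 (standard error 0.14, adjusted p = 0.000311 in edgeR). DESeq2 without the block gave an adjusted p of 0.0124. Over all alternatives the adjusted p of *Cd36* in edgeR, DESeq2 or limma ranged from 1.33e-05 to 0.534. The log2 ratio within mouse 2, -1.37, was larger in size than in mice 1 and 3 (-0.54 and -0.56). Without mouse 2 the blocked estimate on the log2 scale was -0.54 (adjusted p = 1.33e-05 in edgeR). Only mice 1 and 3 remain in that fit, so its p-value leans on the spread estimated from all genes. *Cd36* had at least 15972 reads in every library, so counting error is small beside the spread between mice.

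*Scarb1* (ENSMUSG00000037936.16, chromosome 5), is the other class B gene and encodes the HDL receptor. Its values were 98.2, 128 and 116 CPM in control and 102, 143 and 118 CPM in NaCl, and the groups overlapped. Its log2 fold change, 0.08, had a 95% interval from -0.27 to 0.44 (adjusted p = 0.879 in edgeR), and with the block the interval was from -0.16 to 0.32. The test of the difference between the class B genes uses the ratio of their counts within each library, which does not depend on how libraries are scaled. The log2 ratio of *Cd36* to *Scarb1* counts was 5.58 ± 0.09 in control and 4.67 ± 0.63 in NaCl (n = 3 each), a difference of -0.90, and it was lower in 3 of 3 mice. Mouse 2 gave -1.53 and mice 1 and 3 both gave -0.59, and without NaCl replicate 2 the difference was -0.54. The exact permutation test gave p = 0.1 (two-sided), the smallest p that 3 against 3 allow, and 0.133 after adjustment over the 4 pairs of genes compared, and the paired exact sign-flip test gave 0.25, its smallest p. The control and NaCl values of this ratio did not overlap. As both tests gave the smallest p they allow, neither could have passed the threshold. These p-values therefore cannot decide whether the class B genes differed in their response.

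*Msr1* (ENSMUSG00000025044.17, chromosome 8), which encodes SR-A, was at 511, 869 and 762 CPM in control and at 321, 459 and 515 CPM in NaCl. The NaCl library of mouse 3 lay just above the control library of mouse 1, so the groups overlapped although each mouse was lower with salt. The NaCl effect on the log2 scale was -0.73 (standard error 0.22, adjusted p = 0.216 in edgeR) and -0.72 with the replicate block (standard error 0.12, adjusted p = 0.000191 in edgeR). The log2 ratio within mice 1, 2 and 3 was -0.67, -0.92 and -0.57, while the control libraries of *Msr1* alone spanned 0.77 on the log2 scale. With the block, the fits that each left out 1 mouse all passed, with adjusted p-values in edgeR from 6.85e-08 to 0.0119. These p-values too lean on the spread estimated from all genes, not only on that between the mice left. Over all alternatives the adjusted p in edgeR, DESeq2 or limma ranged from 6.85e-08 to 0.677.

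*Marco* (ENSMUSG00000026390.8, chromosome 1), a receptor for bacteria and particles, was the least abundant of the 7. It had 25, 61 and 96 reads in control and 13, 16 and 10 reads in NaCl, which is 2.84, 5.53 and 4.84 CPM and 1.45, 1.45 and 2.40 CPM. The groups did not overlap, but the gap between the lowest control and the highest NaCl value was small. Its difference on the log2 scale, -1.41 (standard error 0.35, adjusted p = 0.126 in edgeR), was the largest of the 7 in size and had the largest standard error. With the block it was -1.37 (standard error 0.30, adjusted p = 0.00337 in edgeR), and DESeq2 without the block gave an adjusted p of 0.0443. The call with the block did not hold in DESeq2 (adjusted p = 0.0715), after thinning every library to the smallest total (log2 fold change -1.13, adjusted p = 0.0752 in edgeR) or without mouse 2 (-0.98, adjusted p = 0.0843 in edgeR). The adjusted p over all alternatives ranged from 0.00268 to 0.552 in edgeR, DESeq2 or limma.

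*Colec12* (ENSMUSG00000036103.10, chromosome 18), the collectin-type receptor, was at 72.1, 92.4 and 108 CPM in control and at 84.7, 109 and 127 CPM in NaCl. It was slightly higher in 3 of 3 mice, with log2 ratios of 0.23, 0.24 and 0.23, yet the groups overlapped because the mice differed by more than the treatment. The log2 fold change was 0.23 with a 95% interval from -0.19 to 0.65 (adjusted p = 0.669 in edgeR). With the block the interval was from -0.00 to 0.47 (adjusted p = 0.231 in edgeR), so a change was not called. The log2 ratio of *Msr1* to *Colec12* counts was 2.96 ± 0.24 in control and 2.00 ± 0.07 in NaCl, a difference of -0.96 that was present in 3 of 3 mice. The log2 ratio of *Msr1* to *Marco* was 7.35 ± 0.10 and 7.89 ± 0.32. The groups did not overlap in either ratio, and the exact permutation test gave p = 0.1 for both (0.133 adjusted over 4 pairs), the smallest p it allows. The paired exact sign-flip test gave 0.25 for both, also its smallest. For *Msr1* to *Marco* the separation was lost with thinned counts (difference 0.38, exact permutation p = 0.3, against 0.54), and without NaCl replicate 2 the difference was 0.36.

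*Stab1* (ENSMUSG00000042286.14, chromosome 14), the clearance receptor stabilin-1, was the second most abundant per kb. It was at 1579, 1742 and 1380 CPM in control and at 1145, 1276 and 863 CPM in NaCl, and every NaCl value was below every control value. NaCl differed from control by -0.52 on the log2 scale (standard error 0.17, adjusted p = 0.249 in edgeR) and -0.53 with the replicate block (standard error 0.12, adjusted p = 0.00422 in edgeR). The log2 ratios within mice 1, 2 and 3 were -0.46, -0.45 and -0.68. The blocked call held without mouse 2 (adjusted p = 1.74e-06 in edgeR) but not without mouse 1 (0.113 in edgeR) or mouse 3 (0.0900 in edgeR), with log2 fold changes from -0.56 to -0.45 in these 3 fits. DESeq2 without the block gave an adjusted p of 0.129, and over all alternatives the range in edgeR, DESeq2 or limma was from 1.74e-06 to 0.717.

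*Cd163* (ENSMUSG00000008845.10, chromosome 6), the haemoglobin receptor, was at 38.3, 28.3 and 18.6 CPM in control and at 31.7, 24.4 and 20.4 CPM in NaCl. Mouse 1 was highest and mouse 3 lowest in both groups, and the control libraries spanned 1.03 on the log2 scale. The log2 ratio was -0.27 and -0.21 in mice 1 and 2 and 0.13 in mouse 3. The log2 fold change was -0.13 with a 95% interval from -0.72 to 0.45 (adjusted p = 0.883 in edgeR), and with the block the interval was from -0.42 to 0.15. The blocked estimate of *Cd36*, -0.82 with a 95% interval from -1.11 to -0.53, lay below this interval. Both intervals lean on the spread estimated from all genes, and a difference between *Cd163* and *Cd36* was not tested. The log2 ratio of *Cd163* to *Stab1* counts was -5.84 ± 0.43 in control and -5.43 ± 0.27 in NaCl, and the groups overlapped (exact permutation test, p = 0.3, 0.3 adjusted over 4 pairs). Within mice 1, 2 and 3 this ratio was higher in NaCl by 0.19, 0.24 and 0.81. The paired exact sign-flip test gave 0.25, the smallest p it allows.

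**Figure D3:**
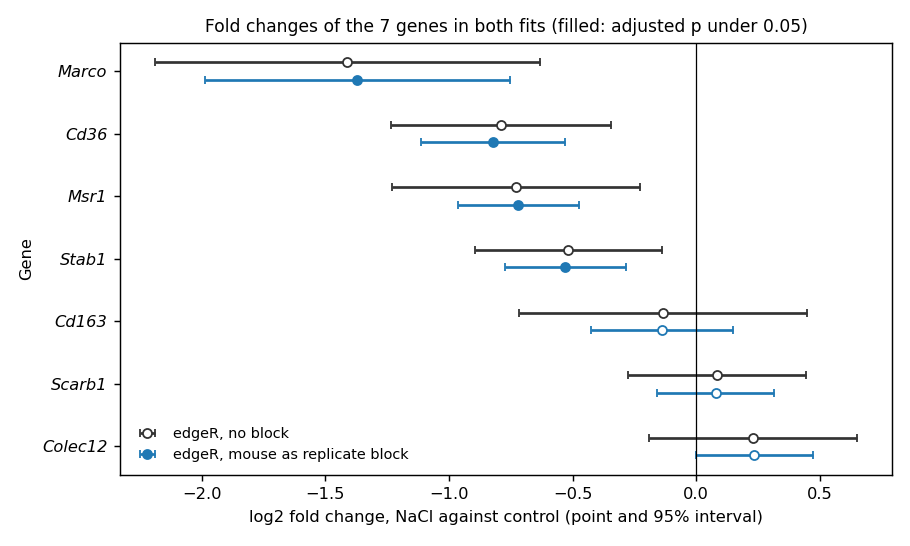
Log2 fold change of each gene, NaCl against control (horizontal axis), with its 95% interval, in black from edgeR without a block and in blue with the mouse as replicate block, and filled points for an adjusted p under 0.05. Estimates of both fits nearly coincide, the blocked intervals are narrower, and *Marco*, *Cd36*, *Msr1* and *Stab1* are filled with the block only.

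Genes with a profile most like each receptor were sought over the 6 libraries, among 9924 genes with a mean of at least 50 counts, by the root mean square distance between log2 CPM values centred on each gene's mean. *Lonrf1*, *Hdac9* and *Psat1* were nearest to *Msr1*, at distances of 0.069, 0.069 and 0.083, where *Msr1* itself varied by 0.47 about its mean. *Tceal8*, *Snx24* and *Fam204a* were nearest to *Cd36*, at 0.097, 0.10 and 0.11. Like *Cd36* these had their lowest ratio in mouse 2, which follows from choosing them by profile. *Fat3*, *Numbl* and *Cndp2* were nearest to *Stab1*, at 0.062, 0.066 and 0.072. *Ccdc25*, *P3h1* and *Uba1* were nearest to *Scarb1* (0.020 to 0.040), *Gfer*, *Lsm6* and *Prpf4* to *Colec12* (0.028 to 0.044), and *Gstt2*, *Mmp9* and *Wdr19* to *Cd163* (0.078 to 0.11). *Marco* had too few reads for this search. No other member was among the nearest 3 of any receptor. As only 3 of 9924 genes were taken each time, this does not show whether the receptors vary together.

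Beyond the 7 genes, 69 genes were examined in 5 lists, of which 62 were tested. They comprise other scavenger receptors, genes that handle lipid cargo, genes that handle haemoglobin and haem, binding and signalling partners, and transcription regulators and sheddases. In edgeR 1 of the 62 was higher and 1 lower, beside the 0.478% and 0.176% of all genes given above. With the mouse as replicate block 3 were higher and 13 lower, beside 4.6% and 4.3% of all genes.

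Among the other scavenger receptors, 16 of 21 were tested, with a median log2 fold change of -0.28. *Cxcl16*, which encodes both a chemokine and a receptor for oxidised LDL, was at 82.8, 47.4 and 46.2 CPM in control and at 158, 202 and 145 CPM in NaCl. It rose by 1.53 on the log2 scale (adjusted p = 0.0318 in edgeR and 8.31e-08 with the block). Without the block the call was lost when control replicate 2 or 3 or NaCl replicate 2 or 3 was left out (adjusted p from 0.0944 to 0.223 in edgeR), and 18.3% of its exonic bases overlap *Zmynd15*. With the block 4 genes were called lower, beside 4.3% of all genes. The macrophage mannose receptor *Mrc1* had 657, 273 and 166 CPM in control and 343, 103 and 110 CPM in NaCl, so mice differed more than treatments, but each mouse was lower with salt (blocked log2 fold change -0.98, adjusted p = 1.4e-05 in edgeR, against 0.505 without the block). *Cd5l*, a secreted protein with scavenger receptor domains, went from 329 ± 57.7 to 173 ± 33.1 CPM (blocked log2 fold change -0.93, adjusted p = 4.7e-06 in edgeR, 0.0585 without the block). The hyaluronan receptor *Cd44* went from 538 ± 6.55 to 372 ± 46.7 CPM (blocked adjusted p = 0.00373 in edgeR, 0.0842 without mouse 1). *Stab2*, the partner of *Stab1* in liver endothelium, was at only 4.64 ± 2.42 and 2.48 ± 1.93 CPM (blocked adjusted p = 0.0254 in edgeR). Its call was lost with the block in DESeq2 (0.188), with thinned counts (0.224) and without mouse 1, 2 or 3 (0.0751, 0.108 and 0.0547 in edgeR). DESeq2 without the block gave an adjusted p of 0.000773 for *Cd5l* and 0.0210 for *Cd44*, but 0.695 for *Mrc1* and 0.547 for *Stab2*. The lysosomal *Cd68*, with 1395 ± 80.8 CPM before and 1333 ± 216 CPM with salt, and *Lrp1*, the LDL receptor-related endocytic receptor, at 4648 ± 408 and 5219 ± 1501 CPM, were not called in either fit. *Scara3*, *Scara5* and *Cd163l1* had no read in any library, and *Cd6* and *Lrp2* had 3 and 5 reads in all.

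Of 14 genes that handle lipid cargo, all tested, 0 passed in edgeR without the block. At an unadjusted p under 0.05 in edgeR, 3 were lower and 0 higher, beside 6.01% of all genes lower. With the block 3 were called lower, beside 4.3% of all genes. These were the cholesterol exporter *Abca1* (234 ± 146 CPM in control, 166 ± 116 in NaCl, blocked log2 fold change -0.54, adjusted p = 0.00328 in edgeR), the lipoprotein lipase *Lpl* (-0.44, adjusted p = 0.0223 in edgeR) and the fatty acid carrier *Fabp4* (-0.55, adjusted p = 0.00581 in edgeR). The blocked call of *Lpl* was lost without mouse 1 or mouse 3 (adjusted p = 0.342 and 0.0753 in edgeR), and that of *Fabp4* without mouse 3 (0.0747). *Pparg*, a nuclear receptor known to drive *Cd36* transcription in macrophages, averaged 49.4 ± 8.96 CPM without and 42.1 ± 8.70 CPM with salt, with a log2 fold change of -0.24 (adjusted p = 0.659 in edgeR, 0.279 with the block).

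Of 9 genes that handle haemoglobin and haem, *Hmox1* was called in both fits. This gene of haem oxygenase, which degrades haem, fell from 2347 ± 942 to 803 ± 137 CPM (log2 fold change -1.55, adjusted p = 0.048 in edgeR and 4.54e-08 with the block). The call without the block was lost in 8 of 19 alternatives, among them leaving out control replicate 2 or 3 or any 1 NaCl library (adjusted p from 0.0693 to 0.304 in edgeR). The iron exporter *Slc40a1* went from 205 ± 68.8 to 77.6 ± 35.5 CPM and fell with the block (log2 fold change -1.44, adjusted p = 1.95e-08 in edgeR, 0.0971 without it). DESeq2 without the block gave *Slc40a1* an adjusted p of 0.000912. The other 7 were not called in either fit, and the median of the list was -0.28. At an unadjusted p under 0.05 in edgeR, 4 of the 9 were lower and 0 higher, beside 6.01% of all genes lower.

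Of 17 partners and signalling genes, 15 were tested and 0 passed in edgeR. At an unadjusted p under 0.05 in edgeR, 2 were lower and 1 higher, beside 6.01% of all genes lower. With the block, *Tlr2*, a receptor for bacterial lipopeptides that works with CD36, was higher (35.6 ± 8.96 CPM in control, 57.7 ± 19.4 CPM in NaCl, adjusted p = 0.000728 in edgeR). Its partner *Tlr6* was lower (19.6 ± 4.38 and 13.6 ± 2.66 CPM, adjusted p = 0.0329), and 9.25% of the windows of *Tlr6* occur in *Tlr1*. The blocked call of *Tlr6* was lost in DESeq2 (0.179), with thinned counts (0.241) and without mouse 1 or mouse 2 (0.255 and 0.105 in edgeR). The CD36 ligand thrombospondin-1, *Thbs1*, fell with the block from 90.7 ± 54.9 to 44.2 ± 34.9 CPM (log2 fold change -1.12, adjusted p = 1.64e-06 in edgeR, 0.457 without the block). The integrin *Itgb1* was called with the block, at -0.41 on the log2 scale (adjusted p = 0.0355 in edgeR), but not in DESeq2 with the block (0.0501), with thinned counts (0.0809) or without mouse 1, 2 or 3 (0.140, 0.125 and 0.0587 in edgeR). The kinases *Lyn* and *Fyn*, which act below CD36, were not called in either fit.

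Of 8 regulators and sheddases, 0 passed in edgeR (1 lower and 1 higher at an unadjusted p under 0.05, beside 6.01% of all genes lower). With the block the transcription factor *Maf* fell from 255 ± 60.3 to 149 ± 58.1 CPM (log2 fold change -0.82, adjusted p = 5.74e-05 in edgeR) and *Cebpb* rose from 49.8 ± 11.7 to 81.1 ± 23.2 CPM (0.70, adjusted p = 0.000732 in edgeR), where 20.7% of the exonic bases of *Cebpb* overlap *Tmem189*. *Spi1*, which encodes PU.1, and *Nfe2l2*, which encodes NRF2, were not called, at 342 ± 25.2 and 407 ± 43.4 CPM for *Spi1* and 205 ± 27.3 and 188 ± 37.9 CPM for *Nfe2l2* in control and NaCl. *Adam17*, the protease that sheds CD163, was at 301 ± 4.03 and 328 ± 11.1 CPM and was not called in either fit.

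**Figure D4:**
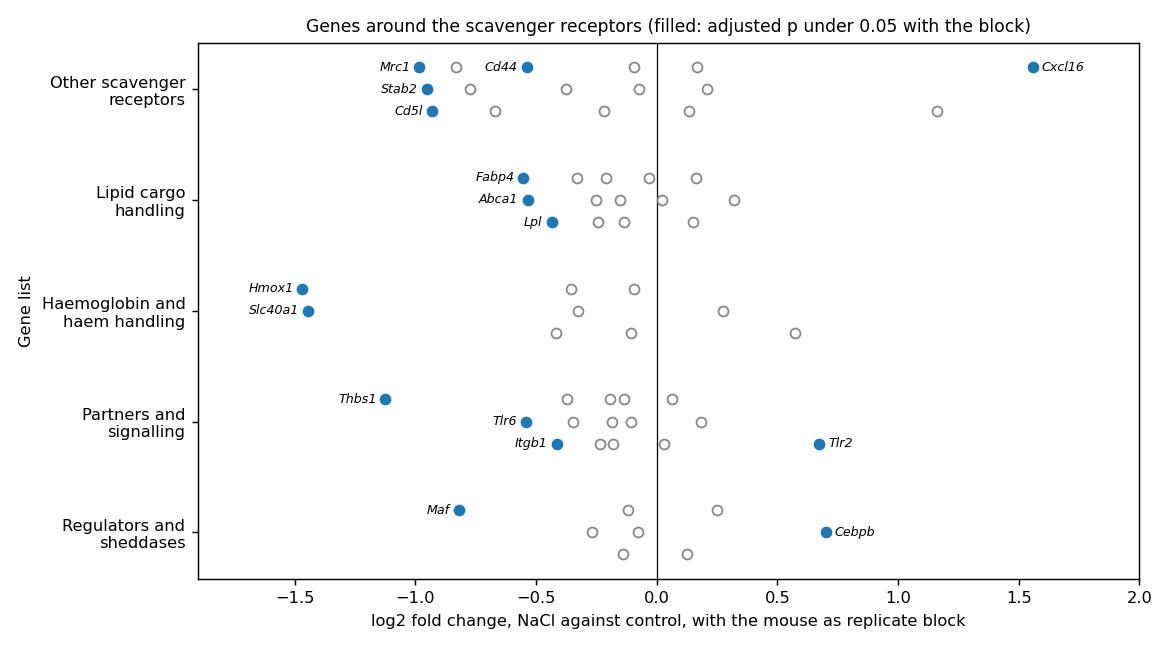
Log2 fold change with the mouse as replicate block (horizontal axis) for the 62 tested genes of the 5 lists, with 1 point for each gene, filled and named where the adjusted p was under 0.05. Of the 16 named genes 13 lie left of 0, and *Hmox1* and *Slc40a1* lie farthest to the left.

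Markers were used to check the cell type. All 7 macrophage markers were detected, with a summed level of 14936 to 16238 CPM in control and 23328 to 30885 CPM in NaCl. Of these, *Lyz2* was higher in edgeR (by 0.96 on the log2 scale, adjusted p = 0.0424), a call lost when any 1 library other than NaCl replicate 1 was left out (0.0661 to 0.304), and *Csf1r* was at an adjusted p of 0.0523 in edgeR and 0.000298 with the block (log2 fold change 0.72), and DESeq2 and limma-voom called it without the block (0.000119 and 0.0463). Of 6 monocyte markers 1, *Ifitm6*, was higher in both fits, though in edgeR without the block not when control replicate 2 or 3 or NaCl replicate 3 was left out (adjusted p from 0.0557 to 0.0905), and their sum was 107 to 227 CPM in control and 98.6 to 294 CPM in NaCl. Of 8 neutrophil markers 0 passed in edgeR (1 lower at an unadjusted p under 0.05, beside 6.01% of all genes lower). *Ngp* and *Mpo* were lower with the block, and the sum of the 8 was 245 to 533 CPM in control and 265 to 387 CPM in NaCl. Of the markers of dendritic cells 6 of 6 were tested, of lymphocytes 2 of 7, of endothelium 4 of 7, of stroma 3 of 7 and of erythroid cells 1 of 7. Of these, 0 passed in edgeR (0 at an unadjusted p under 0.05), and *Stab2* alone was lower with the block. The summed level of each of these lists was at most 11.4 CPM in any library. The endothelial markers *Lyve1* and *Tie1* had 7 and 8 reads in all and *Emcn* had none. The part of other cells in the values of the 7 receptors was not tested.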

How the data were processed

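BMDM cultures of 3 mice, 1 control and 1 with 62 mM added NaCl from each, gave 6 polyA RNA libraries. The authors trimmed single-end reads with fastp 0.20.0, aligned them with STAR 2.7.10b and deposited a table of raw counts for each gene. A further table deposited by the authors is a normalized signal, in which DESeq2 size factors scale those counts. It holds the 15903 genes whose counts sum to 10 or more and was used for gene symbols. The methods name mm10 with an annotation of a later build, so genes are given by chromosome only.

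edgeR 4.0.16 (TMM factors, glmQLFit, glmQLFTest) compared NaCl with control on raw counts. Benjamini-Hochberg adjustment ran over all genes tested, with a threshold of 0.05. The study's methods name no other term, so the mouse entered as a replicate block in a separate fit. The pairing comes from the mouse numbers in the labels. Across genes, deviations from the group means correlated at 0.43, 0.15 and 0.22 for the libraries of mice 1, 2 and 3, and between -0.35 and 0.12 for libraries of different mice. Deviations within a group sum to 0, so these values are not independent of each other. The value of mouse 2 was close to the highest between different mice, and the pairing itself was not tested. Standard errors come from the F statistic, and log2 CPM values use a prior count of 2. Ratios of counts were compared with exact permutation tests after adding 0.5. Exon lengths, overlaps and shared 75-base windows come from GENCODE M21. Alternatives were DESeq2 1.42.0, limma 3.58.1 (voom), other scalings and filters, thinning, and leaving out libraries or mice. The code was tested on simulated data. Members and lists were chosen with earlier results of these data known. All 7 members are named, as are genes of the lists past the threshold in either fit and the 3 nearest profiles of every member with a mean of at least 50 counts. List genes outside this rule, such as *Pparg*, *Cd68* and *Spi1*, were named for their known roles after their values were seen. R 4.3.3 and Python 3.11.15 were used.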

Additional observations from a re-analysis of the deposited data

How the results depend on the processing

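The number of scavenger receptor genes called lower was 0 and depended on the pairing and the test. It was 4 with the replicate block in edgeR, 3 with the block in DESeq2, 2 in DESeq2, 4 when a total count of 1 was enough for testing, 3 with the block and thinned counts, and 3, 3 and 3 with the block and without mouse 1, 2 or 3. The other scalings and filters, limma-voom, thinning without the block and each of the 6 fits without 1 library gave 0, and no fit called a member higher. Among all genes, 76 were higher and 28 lower, against 732 and 684 with the block, 452 and 354 with the block in DESeq2, 245 and 157 in DESeq2, 362 and 300 when a total of 1 was enough, and 502 and 416 with the block and thinned counts. With the block and without mouse 1, 2 or 3 they were 469 and 417, 758 and 661, and 715 and 585. Leaving out 1 library at a time, higher genes numbered 8 to 123 and lower genes 0 to 46. The cause of these differences was not tested.

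For the 5 lists, 1 gene higher and 1 lower became 3 and 13 with the block, 3 and 10 with the block in DESeq2, 3 and 8 when a total of 1 was enough, 3 and 10 with the block and thinned counts, and 3 and 9, 5 and 15, and 3 and 11 with the block and without mouse 1, 2 or 3. DESeq2 called 4 lower, and limma-voom, median-ratio size factors and filterByExpr each called 0 lower. Leaving out 1 library at a time, 0 to 1 were higher and 0 to 2 lower. Among the receptors, only *Scarb1* and *Cd163* changed sign. *Scarb1* was at -0.0065 without control replicate 1 and at -0.051 without NaCl replicate 2, and *Cd163* was at 0.15 without control replicate 1. *Abca1* was at 0.16 without control replicate 1. Leaving out 1 library at a time, these log2 fold changes ranged from -0.051 to 0.20 for *Scarb1*, from -0.36 to 0.15 for *Cd163* and from -1.23 to 0.16 for *Abca1*. No ratio of 2 receptors changed sign in any alternative. Without NaCl replicate 2 the ratios of *Cd36* to *Scarb1* and *Msr1* to *Marco* moved to -0.54 and 0.36. The reads of *Marco*, between 10 and 96 in a library, limit what can be said of it.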
